A study of Homo sapiens with 6 samples.

Results

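Genes of DNA replication and of mitosis were followed in Caco-2 cells over 48 h of coculture with macrophage-like cells. Caco-2, a line from a human colorectal adenocarcinoma, forms a polarised layer that resembles enterocytes of the small intestine. It was grown for 14 days on a permeable membrane and then set above THP-1 cells, a line from a human monocytic leukaemia, which had been differentiated over 4 days with PMA, a phorbol ester. RNA of the Caco-2 cells was read on 1 Affymetrix array at each of 0, 1, 3, 6, 24 and 48 h of coculture. No genetic change or other agent is named for any of the 6 groups, each group is a single array, and no array of Caco-2 cells kept alone for the same times was analysed here.

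The 41 genes were listed by name as parts of the replication machinery and of the mitotic cycle, out of 19775 genes on the array with a probe set of their own. Each gene was read by 1 probe set, that of highest mean log2 signal. The genes were split by role into 19 replication genes, 17 mitotic genes and 5 regulators of entry into S phase. A signal of 16.2, the 50th percentile of all deposited values, served as the floor, and lower signals were raised to it. All 41 genes passed it on at least 1 array and 38 on all 6, and 14623 genes in all passed it on at least 1 array and are called measured genes below.

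A dividing cell first loads the MCM helicase onto replication origins with ORC, CDC6 and CDT1, and then starts synthesis with CDC45, the polymerases and the sliding clamp PCNA. Genes of this step are classic targets of E2F transcription factors, which cyclin D and cyclin E with their kinases release from RB proteins. Mitotic genes such as the B cyclins, CDK1, PLK1 and the Aurora kinases act later in the cycle and are regulated mostly through CHR and CCAAT elements of their promoters. Caco-2 cells slow their division as they differentiate at confluence, which 14 days on a membrane normally gives.

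The promoters of both groups differ in these letters, and a few stretches are shown so that the elements can be seen. RefSeq promoter windows (GRCh38.p14, 250 bases before to 50 after the start) were found for 33 of the 41 genes. Each line below gives the 150 bases before the start, 5′ to 3′ on the gene's strand, with matches in capitals. The letters searched on both strands were TTTCCCGC, TTTCGCGC, TTTGCCGC and TTTGGCGC for E2F, TTTGAA and TTCGAA for CHR, and CCAAT. POLA1, CDC6, RRM1 and BUB1B are among the genes with the lowest log2 ratio at 6 h, while MCM6 and MKI67 are shown for their matches and were chosen after these were seen.
POLA1 (chrX:24693768-24693917, plus strand): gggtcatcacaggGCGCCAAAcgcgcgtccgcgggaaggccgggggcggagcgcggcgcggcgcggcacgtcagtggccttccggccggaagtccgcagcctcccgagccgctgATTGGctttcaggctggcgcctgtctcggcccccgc
CDC6 (chr17:40287729-40287878, plus strand): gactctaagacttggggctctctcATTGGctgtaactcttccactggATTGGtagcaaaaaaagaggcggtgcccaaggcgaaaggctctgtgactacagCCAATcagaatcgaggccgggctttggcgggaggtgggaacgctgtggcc
RRM1 (chr11:4094535-4094684, plus strand): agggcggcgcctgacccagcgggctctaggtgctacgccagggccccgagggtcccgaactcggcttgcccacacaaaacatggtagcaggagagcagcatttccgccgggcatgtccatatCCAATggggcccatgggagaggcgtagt
MCM6 (chr2:135876444-135876593, minus strand): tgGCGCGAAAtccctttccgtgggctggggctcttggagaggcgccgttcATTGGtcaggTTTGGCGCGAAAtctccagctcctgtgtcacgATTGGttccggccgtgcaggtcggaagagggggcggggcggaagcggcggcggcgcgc
BUB1B (chr15:40160919-40161068, plus strand): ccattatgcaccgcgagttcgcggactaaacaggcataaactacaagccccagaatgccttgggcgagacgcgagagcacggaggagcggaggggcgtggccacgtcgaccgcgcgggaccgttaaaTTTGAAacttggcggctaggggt
MKI67 (chr10:128126424-128126573, minus strand): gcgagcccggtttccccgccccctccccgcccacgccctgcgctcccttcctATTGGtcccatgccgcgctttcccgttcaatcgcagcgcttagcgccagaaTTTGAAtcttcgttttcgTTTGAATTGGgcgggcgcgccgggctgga

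POLA1 holds 1 E2F match and 1 CCAAT match in this stretch, CDC6 3 CCAAT matches, RRM1 1 CCAAT match and BUB1B 1 CHR match. MCM6 holds 3 E2F matches, a pair of which overlap on opposite strands, and 2 CCAAT matches. MKI67 holds 2 CHR and 2 CCAAT matches, and 1 of each share a base. The stretches of CENPE and CDC25C held none of these letters. Over the whole window, 10 of 17 replication genes held E2F letters (58.8%), against 1 of 14 mitotic genes (7.14%) and 3.33% of all 27305 promoters. CHR letters stood in 9 of 14 mitotic genes (64.3%), in 2 of 17 replication genes (11.8%) and in 16.6% of all promoters. CCAAT letters were in 12 of 17 replication and 11 of 14 mitotic genes, and in 35.7% of all promoters. A match is a description of these letters and shows no binding.

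The replication genes as a group were lowest at 6 h and close to their starting level at 48 h, while the mitotic genes were lowest at 24 h. The 19 replication genes had median log2 ratios to 0 h of -0.11, -0.36, -0.51, -0.28 and -0.03 after 1, 3, 6, 24 and 48 h. For the 17 mitotic genes it was -0.18, -0.25, -0.42, -0.56 and -0.34 in the same order. The array of the lowest median was the same in 12 of 13 alternatives for each group. It moved to 3 h (-0.34, against -0.32 at 6 h) with the S phase regulators counted as replication genes, and to 6 h (-0.40, against -0.39 at 24 h) for the mitotic genes once _x_at and _s_at probe sets were dropped. Not all 13 could move this array. Leaving out the filter changed no value, and each change of membership touched only its own group. Over all measured genes the median lay between -0.04 at 6 h and 0. The 5 regulators of S phase entry had medians of 0.03, -0.05, 0.05, 0.58 and 0.68.

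**Figure D1:**
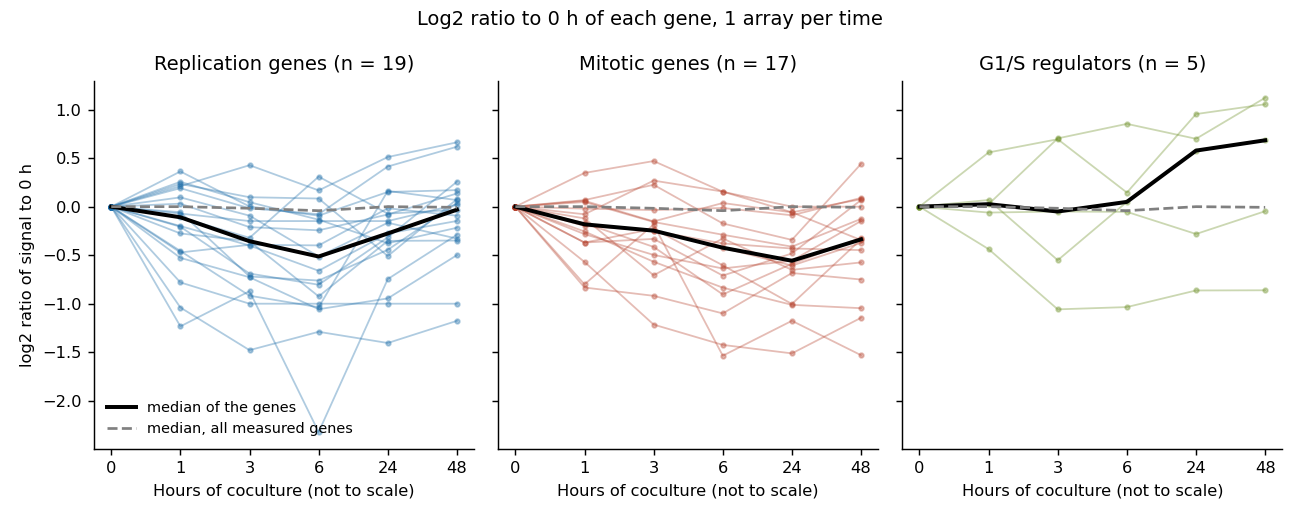
Log2 ratio of signal to 0 h (vertical) against hours of coculture (horizontal, not to scale) for 19 replication, 17 mitotic and 5 G1/S genes, 1 line per gene and 1 array per time. The black line is the median of the genes and the dashed line that of all measured genes. The replication median is lowest at 6 h (-0.51) and the mitotic median at 24 h (-0.56).

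A gene was counted as higher or lower where its signal differed at least 2-fold from that at 0 h, with at least 1 of these arrays above the floor. There is 1 array per time and so no test, no p-value and no spread between cultures behind any value here. In bulk RNA, fewer cells that express a gene and less of its RNA per cell cannot be told apart. Of the 41 genes, 2 were lower at 1 h, where 1.44% of measured genes were, and 4 at 3 h, where 3.52% were. At 6 h 9 of 41 (22.0%) were lower against 6.45% of measured genes, at 24 h 6 (14.6%) against 6.14%, and at 48 h 5 (12.2%) against 6.14%. None was higher until 48 h, when 2 were, while the shares of measured genes at least 2-fold higher were 1.90%, 3.10%, 4.23%, 3.95% and 3.82% from 1 to 48 h. In all, 13 genes made 28 such calls, and 28 genes made none, with log2 ratios between -0.93 and 0.68. A gene less than 2-fold above the floor at 0 h could not be called lower. On all 6 arrays 38 of the 41 genes were above the floor, but only 10446 of the 14623 measured genes. The shares here and below therefore do not compare like with like.

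The 0 h array weighs on all of these counts. The 3'/5' ratio of the ACTB control probe sets, which reflects RNA integrity and labelling, was 51.2 on it, 18.0 on the 6 h array and between 22.9 and 37.0 on the others. That of the GAPDH control probe sets did not set the 0 h array apart (4.69, and 4.72 at 24 h). It was lowest on the 6 h array (3.54), as the ACTB ratio was. The part of the 0 h and 6 h arrays in the counts was not tested. Set against the 1 h array instead, 1 of the 41 genes was lower at 6 h (MCM5) and none at 3, 24 or 48 h, while 1.31%, 3.19%, 4.55% and 4.83% of measured genes were lower from 3 to 48 h. On this baseline 1 was higher, E2F1 at 48 h, against 1.35%, 2.42%, 2.55% and 2.98% of measured genes. The members' counts thus did not stand above the share of all genes there. On this baseline the replication median was still lowest at 6 h (-0.39, and -0.11 at 24 h) and the mitotic median at 24 h (-0.38, and -0.24 at 6 h). The robust SD of log2 ratios between probe sets of one gene at 6 h, a rough gauge of measurement noise that also holds real differences between transcripts, was 0.53 in the dimmest of 4 ranges of signal, 0.44 and 0.37 in the middle ranges and 0.19 in the brightest. A 2-fold difference is 1 on this scale. For 20 genes, 2 or more probe sets passed the floor on all arrays, and those of a gene lay on the same side of 0 h in 13, 12, 15, 17 and 12 from 1 to 48 h.

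The arrays carried the RNA of epithelial cells. EPCAM, an adhesion molecule of epithelia, had signals of 4159 to 5688 and CDH1, E-cadherin, 4137 to 4801, and 13 or 14 of 14 epithelial markers were above the floor. Among these, KRT20 was higher by 2.02 on the log2 scale at 24 h, CDX2 was at -1.81 at 3 h and LGALS4 at -1.17 at 48 h, while TJP1 was at 0.92 at 6 h, short of 2-fold. Of 19 markers of macrophages and monocytes, 4 to 7 were above it, and their summed signal was 679 at 0 h and 302 to 497 during coculture, of which AIF1 alone gave 360.0 at 0 h and 43.0 at 48 h. The part of other cells in the results was not tested. Of the 19, CD14, ITGAM, AIF1 and LAPTM5 were above the floor on all 6 arrays, CSF1R on 5, FCER1G on 4, TYROBP on 2, and ITGB2 and CD163 on 1. The other 10, among them PTPRC, SPI1, MNDA and FCGR1A, were under it on all 6.

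Among the genes that license origins, the MCM helicase subunits did not move as one. MCM5 had signals of 166, 70.4, 90.6, 33.1, 98.8 and 136 at 0, 1, 3, 6, 24 and 48 h, and was lower at 1 h (2.35-fold) and at 6 h (5.01-fold). The array at 6 h was the lowest and the one at 48 h close to 0 h. A second MCM5 probe set was dimmer, with 23.8, 28.9, 2.60, 4.71, 27.1 and 47.9, so it was under the floor at 3 and 6 h and not lower at 1 h. No other MCM subunit reached 2-fold. MCM3 had signals of 91.8, 88.3, 55.7, 54.1, 67.5 and 94.2, lowest at 3 and 6 h. MCM2 was lowest at 6 h (log2 ratio of -0.51), and MCM6 had -0.24 there and 0.14 by 48 h. A dimmer MCM6 probe set had -0.62 and -0.46 at these times. On the probe sets used, MCM4 and MCM7 stood apart from these. MCM4 had a log2 ratio of -0.08 after 6 h but 0.62 by the end, and MCM7 had 0.08 after 6 h and its lowest, -0.51, after 24 h. Dimmer MCM4 probe sets above the floor on all arrays disagreed, with 0.42 and -0.70 after 6 h, and 0.01 and 0.17 by the end. A dimmer MCM7 probe set was at -0.10 after 24 h.

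CDC6, the loader of the helicase, had signals of 100.1, 72.9, 53.0, 48.8, 112 and 105, which is 2.05-fold lower at 6 h and 0.16 above 0 h on the log2 scale at 24 h. The 6 h value fell short of 2-fold in 6 of 13 alternatives, quantile normalization and a common median among them. A second CDC6 probe set was also lowest early, at 3 h, where it was at -1.01 on the log2 scale, against -0.38 on the 6 h array. CDT1, its partner, and ORC6, an origin recognition subunit, did not share the dip, with log2 ratios of -0.09 and 0.17 at 6 h. Both were read by probe sets of the _x_at type, which can take up related transcripts. ORC1 lay near the floor, with signals of 18.0, 17.1, 6.77, 2.18, 9.92 and 18.3. It was under the floor at 3, 6 and 24 h, so its ratios say little.

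Among the genes of the replication fork, CDC45, which activates the helicase, had signals of 32.5, 18.9, 11.2, 5.84, 10.6 and 5.49. From 3 h on it was under the floor and at least 2-fold lower, a bound set by the floor. POLA1, the catalytic subunit of the polymerase that primes synthesis, had 83.6, 40.7, 29.97, 34.2, 31.5 and 37.0. It was the only one of the 41 genes past 2-fold at every coculture time, from 2.06-fold lower at 1 h to 2.79-fold at 3 h. Its 0 h array stood above the other 5, which lay between 29.97 and 40.7. MCM10, which helps start the fork, was at -0.40 after 6 h and -0.02 after 24 h on the log2 scale. POLE2, a subunit of the leading-strand polymerase, had signals of 208, 172, 162, 109, 163 and 163, and was 1.90-fold lower at 6 h.

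PCNA, the sliding clamp, had signals of 986, 854, 611, 564, 792 and 1179. It was 1.75-fold lower at 6 h, short of the size rule, and at 48 h it stood above 0 h by a log2 ratio of 0.26. Its step from 6 to 48 h was 1.06 on the log2 scale.

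The genes that supply deoxynucleotides were more uneven. RRM1, the large subunit of ribonucleotide reductase, had signals of 1494, 1036, 902, 717, 775 and 1056, and was 2.08-fold lower at 6 h. A dimmer RRM1 probe set was at -0.04 on the log2 scale there. RRM2, the small subunit, was at -0.13 (6 h) and -0.38 (24 h) on the log2 scale, and at -0.92 and -0.79 in its other probe set. TYMS, which makes thymidylate, had signals of 1901, 1655, 1440.2, 1202, 1569.8 and 1716, lowest at 6 h with a log2 ratio of -0.66. A second TYMS probe set had -1.21 at both 6 and 24 h and -1.33 at 48 h, so the return seen in the first was not in it. TK1, the thymidine kinase of S phase, was highest at 6 h, with a log2 ratio of 0.31, but its second probe set was lowest there (-0.06) and highest at 48 h (0.59).

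**Figure D2:**
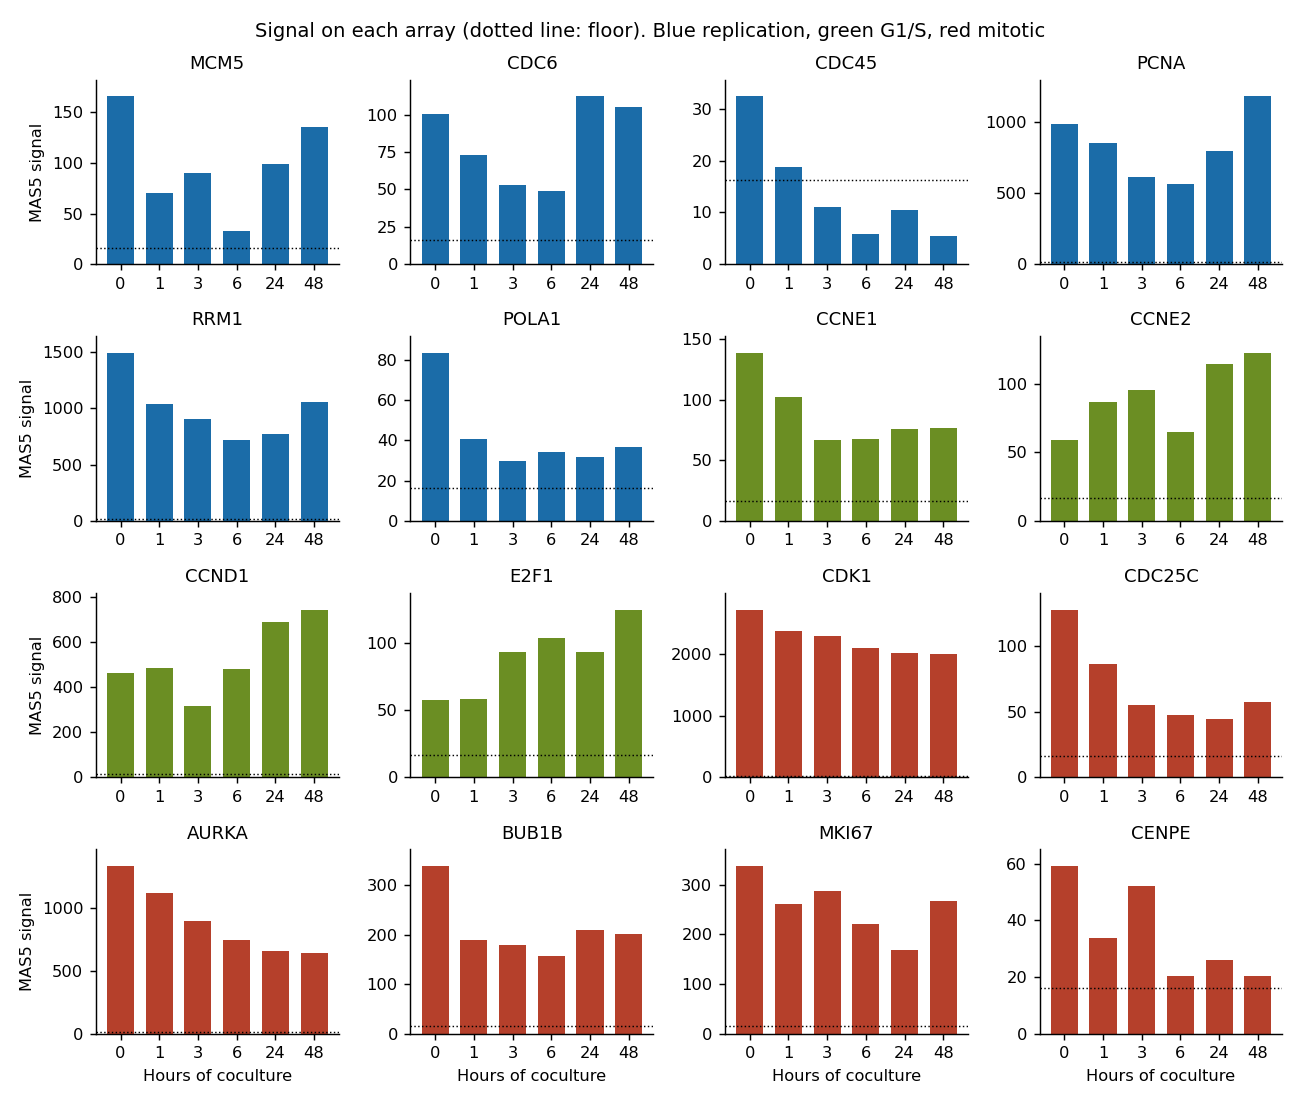
MAS5 signal (vertical, linear from 0) on each array (horizontal, hours of coculture) for the 13 genes past 2-fold at any time and for PCNA, CCND1 and CDK1. Each bar is 1 array and the dotted line is the floor of 16.2. CDC6 and PCNA dip and return, POLA1 and CDC25C stay below their 0 h bar, and E2F1 and CCND1 are highest at 48 h.

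As a group, the regulators of S phase entry did not follow the replication genes, though CCNE1 was also lower early. CCNE1, the first cyclin E, had signals of 139, 102, 66.5, 67.6, 76.1 and 76.2, and was 2.08- and 2.05-fold lower on the 3 and 6 h arrays. These calls ended in 4 and 6 of 13 alternatives. CCNE2, the second cyclin E, had 59.0, 86.9, 95.6, 65.3, 114 and 123, all above 0 h, and was 2.08-fold higher at 48 h, short of 2-fold in 3 of 13 alternatives. E2F1, the activator of replication genes, had 57.2, 58.2, 93.2, 103, 92.9 and 125, and was 2.18-fold higher at 48 h. A second E2F1 probe set was at 0.72 after 24 h and 0.17 after 48 h on the log2 scale. CCND1, cyclin D1, had 463, 485, 316, 479, 691 and 744, lowest at 3 h and 1.61-fold above 0 h at 48 h. Its second probe set reached 1.18 and 1.11 on the last arrays, on the log2 scale. CDK2, the kinase of cyclin E, lay between 333 and 405 on all arrays.

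Among the mitotic genes, several stayed below 0 h to the last array. CDC25C, a phosphatase that activates CDK1, had signals of 128, 86.2, 55.1, 47.6, 44.8 and 57.8. From 3 h on it was 2.32-, 2.69-, 2.86- and 2.21-fold lower. Its other probe sets were under the floor at 0 h, and 1 of them was above it at 3 h (27.8). AURKA, a kinase of the spindle poles, had 1331, 1114, 898, 746, 659 and 644, each array below the one before, and its last arrays were 2.02- and 2.07-fold lower, calls that ended in 5 and 2 of 13 alternatives. A second, bright AURKA probe set had log2 ratios of -0.82 and -0.76 at these times. CENPE, a kinesin of the kinetochore, had 59.1, 33.9, 52.0, 20.4, 26.1 and 20.4, and was lower from 6 h on, by 2.90-, 2.26- and 2.89-fold, though these signals are close to the floor.

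BUB1B, a spindle checkpoint kinase, had signals of 338, 189.6, 179, 158, 210.3 and 201. It was 2.15-fold lower at 6 h, and every coculture array lay below the 0 h array. Its relative BUB1 had 145, 129, 109, 77.7, 96.7 and 116, a log2 ratio of -0.91 at 6 h. MKI67, the proliferation antigen Ki-67, had 337, 261, 288, 222, 168 and 267, and was 2.01-fold lower at 24 h, a call that ended in 6 of 12 alternatives. Of its 3 other probe sets, the brightest was at -0.73 on the log2 scale there and 1 of the dimmer ones at 0.48.

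No other mitotic gene reached 2-fold. CDK1, the mitotic kinase, had signals of 2718, 2369, 2286, 2089, 2015 and 1992, a gradual decline to a log2 ratio of -0.45 at 48 h, and all 4 of its probe sets were below 0 h at every later time. CCNB1 and CCNB2, the B cyclins, were lowest at 24 h with ratios of -0.41 and -0.61, but a second CCNB1 probe set was lowest at 3 h (-0.24) and at -0.05 after 24 h. CDC20, the activator of the anaphase-promoting complex, had -0.71 at 3 h and -0.65 at 24 h. TOP2A, which untangles chromosomes, and KIF11, the spindle motor, were lowest at 6 h (-0.64 and -0.71) and had ratios of -0.15 and 0.07 at 48 h, though a dimmer TOP2A probe set was at 0.52 on the 6 h array. BIRC5, survivin, had -0.34 at 24 h and 0.44 at 48 h, but its next probe sets had -0.41 and -0.77 at 48 h. CCNA2, TTK and PLK1 lay within log2 ratios of -0.34 to 0.27 on these probe sets. A second, dimmer CCNA2 probe set ran from -0.62 at 1 h to -0.85 at 24 h. AURKB was under the floor at 0, 24 and 48 h and never above 22.5.

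The comparison of replication with mitotic genes turned on the interval from 6 to 24 h, which does not involve the 0 h array. Between these arrays 13 of 19 replication genes were higher at 24 h, 4 lower and 2 under the floor on both, with a median log2 ratio of 0.32. Of the 17 mitotic genes 5 were higher and 12 lower, with a median of -0.10. Of the 14623 measured genes 7223 were higher (49.4%), 6061 lower and 1339 equal once floored, and the median was 0. More of them were thus higher than lower. The largest steps among replication genes were those of MCM5 (1.58), CDC6 (1.20) and POLE2 (0.57), and the smallest that of MCM7 (-0.59). Among mitotic genes they ran from -0.40 for MKI67 to 0.42 for BUB1B. The replication median minus the mitotic median was 0.41 for this step, and 0.30 to 0.44 under the 12 alternatives tried. Measured against 0 h, the same difference was 0.07, -0.11, -0.09, 0.28 and 0.31 from the first to the last coculture time. That at 6 h ran from -0.24 to 0.10 over the alternatives, so the groups did not stand apart there. Genes of one list are not replicates of a condition, and these differences carry no test. The step from 6 to 24 h rests on the 6 h array, which had the lowest ACTB and GAPDH 3'/5' ratios. Its part in the step was not tested.

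**Figure D3:**
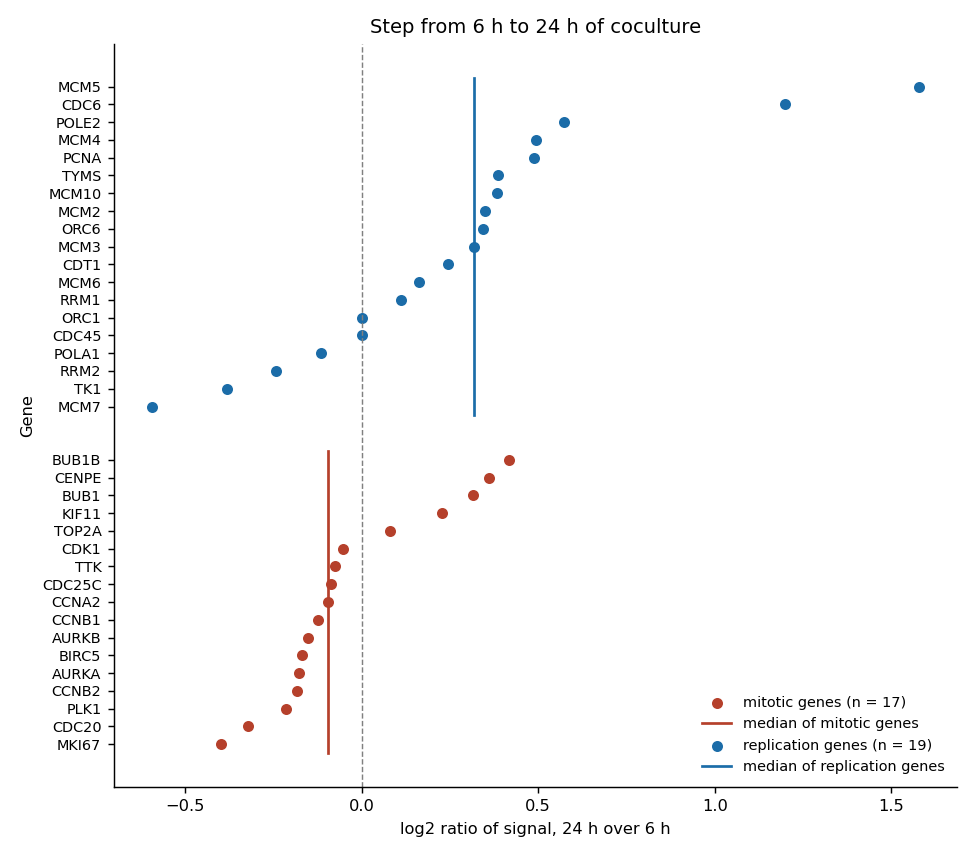
Log2 ratio of signal at 24 h over 6 h (horizontal) for each of 19 replication genes (blue) and 17 mitotic genes (red), sorted within each group (vertical), with 1 array at each time. Vertical lines are the group medians, 0.32 for replication and -0.10 for mitotic genes, and the dashed line marks no difference.

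The groups also differed in the array of their lowest signal. Of the 17 replication genes above the floor on all 6 arrays, 11 (64.7%) had their lowest signal at 6 h, 2 each at 3 and 24 h, 1 each at 0 and 1 h, and none at 48 h. Of the 16 such mitotic genes, 5 had it at 6 h (31.3%), 6 at 24 h (37.5%), while the 3 h and 48 h arrays held 2 and 3. Among all 10446 such genes, 22.4% were lowest at 6 h and 14.1% at 24 h. None of these mitotic genes was lowest at 0 h, where 18.2% of all genes were.

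**Figure D4:**
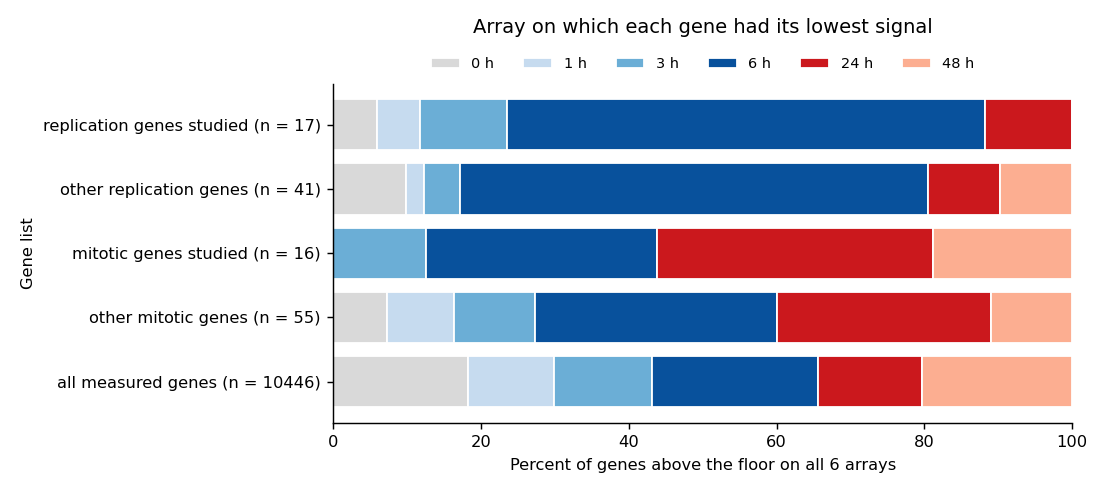
Percent of genes (horizontal) that had their lowest signal on each of the 6 arrays (colours), for the replication and mitotic genes studied, other genes of both processes, and all measured genes above the floor on all arrays. The 6 h segment is 64.7% of replication genes and 63.4% of other replication genes, against 22.4% of all genes.

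Further genes of both processes were listed by function, with earlier results of these data known, so they are no independent support. The 44 measured other replication genes had median log2 ratios of -0.12, -0.24, -0.48, -0.18 and -0.05 from 1 to 48 h, and 26 of the 41 above the floor throughout were lowest at 6 h (63.4%). At 6 h 6 of the 44 were lower (13.6%) and 1 higher, where 6.45% and 4.23% of measured genes were. Against the 1 h array 1 was lower there, where 3.19% of measured genes were. RPA3, a subunit of the single-strand binding protein, had signals of 645, 336, 320.3, 236, 277 and 343. FEN1, a flap nuclease, had 320.0, 242, 209, 142, 274 and 307, a dip with near-complete return. POLD3, a subunit of the lagging-strand polymerase, had 222, 148, 136, 110.3, 112 and 91.9, lowest on the last array. RFC5, a subunit of the clamp loader, went the other way, with 328, 834, 1222, 995, 1216 and 1090.0.

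The 60 measured other mitotic genes had medians of -0.16, -0.25, -0.46, -0.52 and -0.30, and 18 of 55 were lowest at 6 h and 16 at 24 h (32.7% and 29.1%). At 24 h 7 were lower (11.7%) and none higher, where 6.14% and 3.95% of measured genes were. Against the 1 h array 3 of the 60 were lower there, where 4.55% of measured genes were, so that count did not stand apart. ESPL1, separase, had signals of 610.0, 717, 479, 402, 183 and 243, lowest at 24 h. The kinesins KIF14 and KIFC1 were lower at every coculture time, with log2 ratios of -1.41 and -2.05 at 6 h, the latter at the floor. SPC24, of the kinetochore, was lower only at 3 h (-1.87). From 6 to 24 h, 34 of 44 other replication genes and 25 of 60 other mitotic genes were higher, with medians of 0.24 and -0.03.

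**Figure D5:**
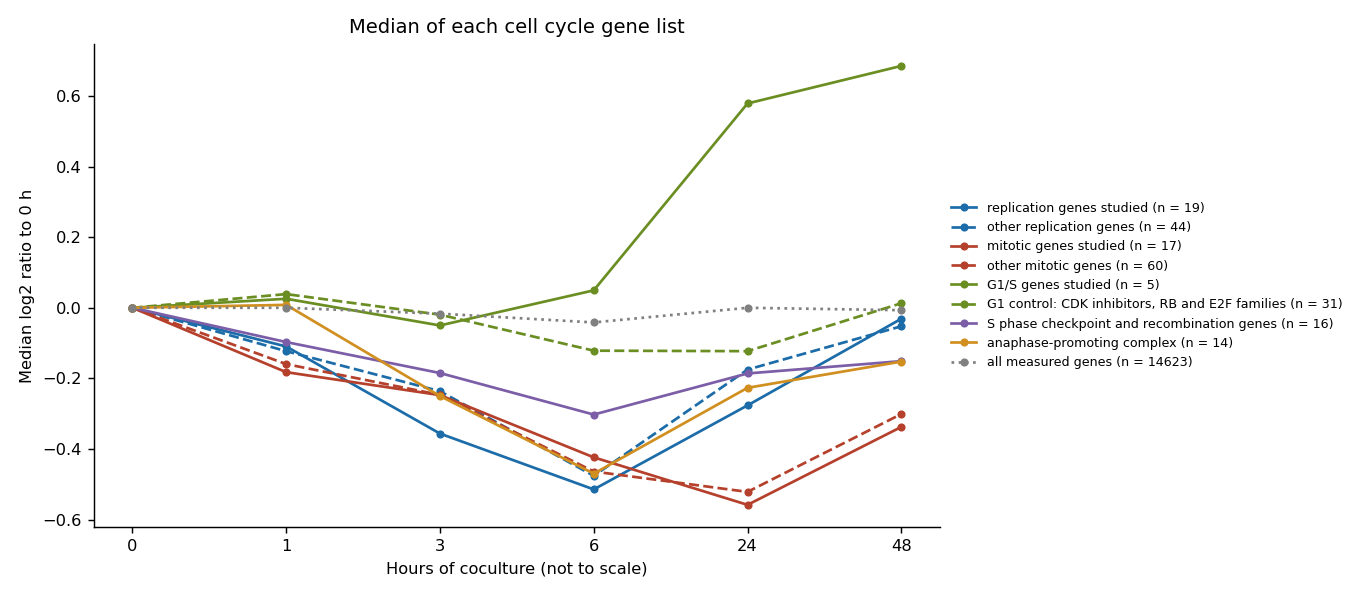
Median log2 ratio to 0 h (vertical) against hours of coculture (horizontal, not to scale) for each list of cell cycle genes and for all measured genes, with the number of genes in the key and 1 array per time. Both replication lists are lowest at 6 h (-0.51 and -0.48) and both mitotic lists at 24 h (-0.56 and -0.52).

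The remaining cell cycle lists held mixed members, and the course of the anaphase-promoting complex resembled that of the replication genes. Of its 12 genes above the floor on all arrays, 7 were lowest at 6 h (58.3%). From 6 to 24 h, 10 of its 14 measured genes were higher, with a median log2 ratio of 0.20. The low at 6 h and the later rise were thus not particular to replication genes. Of the 16 S phase checkpoint and recombination genes, 7 were higher over this step, with a median of -0.04. Genes of the S phase checkpoint and of recombination had a median of -0.30 at 6 h. None of the 16 was lower there, where 6.45% of measured genes were, and BLM, a helicase, was lower at 48 h (-1.06). BARD1, CHEK2 and RAD9A, of the DNA damage response, were short of 2-fold throughout, with log2 ratios of -0.81, -0.85 and -0.81 at 6 h. The anaphase-promoting complex had a median of -0.47 at 6 h, with CDC23 (-1.07) and CDC26 (-1.15) lower, and ANAPC15 was lower at 24 h (-1.23) and 48 h (-1.27), while its activator FZR1, under the floor at 0 h, was higher from 3 h (1.65, a lower bound). The list of CDK inhibitors, RB and E2F families had medians between -0.12 and 0.04. Within it, CDKN2A, which encodes the inhibitor p16, had signals of 193, 107, 50.8, 75.4, 49.97 and 50.4, and the phosphatase CDKN3 had 311, 195, 120.1, 122, 126 and 166. MYC, a growth-promoting factor, had 611, 798, 1255, 1759.7, 861 and 437, highest at 6 h when the replication genes were lowest. E2F3, an activating E2F, was higher at 3, 6 and 24 h, with log2 ratios of 1.32, 1.03 and 1.19.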

How the data were processed

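Affymetrix arrays (HG-U133 Plus 2.0 per the probe annotation) of Caco-2 RNA at 6 coculture times were read as deposited. The authors deposited linear intensities, 1 per probe set, made with MAS5 per the submitters' processing notes. Its version and scaling target were not given in the sources used here. The 2% trimmed mean was 93.8 on each array, so no scaling was added. Of 54675 probe sets, 41097 carry 1 gene symbol. Symbols were updated by gene ID through RefSeq (GRCh38.p14, 41037 probe sets matched). Signals were floored at 16.2 and log2 taken (Python 3.11.15, pandas 2.3.3). Each time was set against 0 h, n = 1 each, so no test was possible and the number of arrays limits precision.

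The members and lists were chosen with earlier results of these data known. The rule for named genes gave in full each member past 2-fold at any time, with CCND1, CCNE1, PCNA, CDK1 and MKI67 whatever their values, accounted for all 41 members, and took up to 4 genes of each further list by largest absolute log2 ratio. Not analysed here for want of a probe set of their own were CDKN2C and 7 genes of the other cell cycle lists, HNF4A and CD68. Alternatives covered normalization (quantile, common median, signal bins), floors at the 30th and 65th percentiles, a pseudocount, filters, probe set choice, the baseline array, membership and the size rule.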

Additional observations from a re-analysis of the deposited data

How the results depend on the processing

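All 216 recomputed medians of the replication and mitotic members and differences between them moved by less than 0.2 on the log2 scale, a tolerance set in place of a replicate spread, under quantile normalization, other floors, a pseudocount, probe set choice, membership and the 1 h baseline. This tolerance is larger than several of the values, among them the differences of 0.07, -0.11 and -0.09 at 1, 3 and 6 h. That at 6 h ran from -0.24 to 0.10 and so changed sign, yet it counts as unmoved. For such small values the rule shows no stability. Some of the 216 could not move. A common median left every difference as it was, leaving out the filter changed no value, and each change of membership left the other group's median alone. The difference at 24 h against 0 h ran from 0.18 to 0.34 and that at 48 h from 0.25 to 0.37. Of 344 recomputed single-gene calls, 268 stayed past 2-fold, 74 did not and 2 turned sign. Those were MCM5 at 1 h, once _x_at and _s_at probe sets were dropped (0.28), and CDC25C at 3 h with the median over probe sets (0.78). Changes of membership and of the filter on low values could not change the ratio of a single gene. The 268 therefore include outcomes fixed in advance, and so do the numbers of alternatives given for single genes. The median of the anaphase-promoting complex at 24 h (-0.23) turned to 0.039 with the median over probe sets, and to 0.074 when probe sets ending in _x_at and _s_at were left out. Against the 1 h array the median of the other mitotic genes at 48 h was -0.03 in place of -0.30. The cause was not tested. Counts moved more. With a 1.5-fold rule 18 of the 41 genes were lower at 6 h and with a 3-fold rule 1, and without _x_at and _s_at probe sets 6. The shares of all measured genes under these settings were not computed. These counts therefore show only how far the number depends on the rule, and nothing particular to the 41 genes. No paired analysis was possible because each time has a single array.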

Other observations

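The promoter letters that separate the replication genes from the mitotic genes were also set against the arrays over all measured genes with a RefSeq window. The 492 genes with E2F letters and no CHR letters, the 41 genes left out, had medians to 0 h of -0.12 (6 h) and -0.05 (24 h) on the log2 scale. The 1329 genes with CHR letters and no E2F letters had -0.05 and -0.0016. All 11647 genes with a window, members left out, had -0.05 and 0, so the CHR class did not differ from them. The median log2 ratio of 24 h over 6 h was 0 in both classes, against 0.32 for the 19 replication genes and -0.10 for the 17 mitotic genes. Genes under the floor on both arrays count as 0 here, while 38 of the 41 members were above it on all 6 arrays. Classes and members are therefore not alike in this.

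RB1 and RBL1, pocket proteins that hold E2F factors, were at least 2-fold higher only at 48 h, with log2 ratios of 1.07 and 1.09, the time at which E2F1 and CCNE2 were also past 2-fold. Against the 1 h array RB1 (0.88), RBL1 (0.44) and CCNE2 (0.50) fell short of 2-fold, and E2F1 (1.098) did not. CDKN1A, the inhibitor p21, had 312, 494, 623, 422, 273 and 193 and was highest at 3 h, short of 2-fold. These 3 genes were chosen after their values were seen.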
